A study of Mus musculus with 9 samples.

Results

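The H2 genes are the genes of the mouse major histocompatibility complex (MHC), and 31 of them were followed through 9 liver libraries. The members were selected by their measured level: each is a row of the deposited gene table whose symbol starts with H2- and whose mean scaled count over the 9 libraries was at least 1. A scaled count is a library's read count divided by that library's size factor. Of 33 rows with such a symbol, among 25781 genes in all, 31 qualified. The rows just outside were H2-Q3, with a mean scaled count of 0.586, and H2-Eb2, with 0.960; the rows just inside were H2-M5, with 1.03, and H2-M6-ps, with 1.5. The 31 members comprised 2 classical class I genes, 3 classical class II genes, 5 class II accessory genes, 13 non-classical class I genes, 7 rows annotated as pseudogenes and 1 gene of other function, H2-Ke6.

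The libraries were made from liver of Swiss mice aged 10 to 12 weeks, in 3 groups of 3. The first group received β-CYP at 40 mg/kg and, in addition, Na2SeO3 (sodium selenite) at 50 µg/kg, and is called the selenite group here; the second received β-CYP at 40 mg/kg alone; the third was the control. β-CYP is not spelled out in the labels. In the design text of the series its group is called the liver injury group and the selenite group is called the repair group. Swiss is the strain label of all 9 libraries, and Swiss mice are an outbred stock, so that animals can carry different MHC haplotypes; no haplotype was typed. Whether each library stands for its own animal is not labelled, and the p-values below reflect library-to-library spread, which can be technical.

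Class I molecules consist of a heavy chain, encoded by an H2 gene, bound to β2-microglobulin, and display peptides from the cell's interior on almost every nucleated cell; the classical H2-K and H2-D chains present to CD8 T cells. Class II molecules pair an α with a β chain, are made mainly by dendritic cells, B cells and macrophages, and present peptides taken up from outside to CD4 T cells. In liver, Kupffer cells and dendritic cells are the usual class II-bearing cells, whereas hepatocytes make class I and secrete a soluble class I chain, H2-Q10. Transcription of class I genes is driven by NLRC5 and NF-κB and interferon response factors, and that of class II genes by CIITA acting through the X and Y boxes of their promoters.

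The promoters of the abundant class I and class II members are shown because the results below differ between neighbours of each family. They come from the RefSeq promoter table of build GRCm38.p6, in which 22 of the 31 members were found with 24 windows of 250 bases before to 50 bases after an annotated start. For 4 class I members, a run of 100 bases from the region upstream of the first listed start is given 5′ to 3′ in the direction of transcription; capitals mark GATTCCCC, the core of the κB-like element of enhancer A, and TTTCACTT, an interferon-response-like element next to it.
H2-K1 (chr17:34000399-34000498, minus strand): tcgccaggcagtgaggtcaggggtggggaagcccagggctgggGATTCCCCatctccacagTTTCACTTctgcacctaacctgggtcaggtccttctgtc
H2-D1 (chr17:35262883-35262982, plus strand): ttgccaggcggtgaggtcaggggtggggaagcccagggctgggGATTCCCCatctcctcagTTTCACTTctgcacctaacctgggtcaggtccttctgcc
H2-Q4 (chr17:35379403-35379502, plus strand): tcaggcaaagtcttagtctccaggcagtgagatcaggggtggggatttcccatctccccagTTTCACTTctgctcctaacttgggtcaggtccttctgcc
H2-Q10 (chr17:35469873-35469972, plus strand): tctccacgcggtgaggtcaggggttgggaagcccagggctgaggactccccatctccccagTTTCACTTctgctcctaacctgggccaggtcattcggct

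The H2-K1 and H2-D1 stretches held the exact letters of both elements, and those of H2-Q4 and H2-Q10 held TTTCACTT alone. In the place of GATTCCCC, H2-Q4 has gatttccc and H2-Q10 has gactcccc, variants that the search did not count. Searched on both strands, GATTCCCC was present in 0.84% of 32851 mouse promoter windows and in windows of H2-K1, H2-D1, H2-Q6 and H2-M3. TTTCACTT was present in 1.60% of all windows and in windows of 9 members, which were H2-K1, H2-D1, H2-Q4, H2-Q6, H2-Q7, H2-Q10, H2-T3, H2-T22 and H2-M3. The letters were chosen after reading these promoters, so a match is a description of the sequence.

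For 3 class II members, the 120 bases before the start are given in the same way. Capitals mark ATTGG, the reversed CCAAT of a Y box (CCAAT where it lies on the other strand), and AGCAACNGA, an X box-like run; none of the searched elements overlap within these stretches.
H2-Aa (chr17:34287824-34287943, minus strand): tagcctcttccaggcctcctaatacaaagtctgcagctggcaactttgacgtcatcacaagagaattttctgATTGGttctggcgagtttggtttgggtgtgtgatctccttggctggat
H2-Eb1 (chr17:34305747-34305866, plus strand): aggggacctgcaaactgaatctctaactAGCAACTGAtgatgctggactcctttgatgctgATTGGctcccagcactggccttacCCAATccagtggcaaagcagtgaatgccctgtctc
H2-DMb1 (chr17:34153071-34153190, plus strand): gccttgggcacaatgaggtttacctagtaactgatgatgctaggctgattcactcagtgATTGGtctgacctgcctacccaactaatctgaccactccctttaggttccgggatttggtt

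The Y box letters stood 48 bases before the start of H2-Aa, 59 before that of H2-Eb1 and 61 before that of H2-DMb1. ATTGG is a common run, present in 37.4% of all windows on either strand. The exact letters AGCAACNGA were in 1.34% of all windows and, among the members with a window, in H2-Eb1 alone. Upstream of its Y box letters H2-DMb1 has agtaactga, a variant that the search did not count. H2-Ab1 had no window in the promoter table. The search therefore does not show which class II members have an X box.

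Libraries held 28630269 to 36029560 reads. Control replicate 2 stood apart from the other controls, at 236.7 and 207.6 chi-square per gene against 12.18 between the other 2 controls and 9.525 to 14.55 in the other groups; replicates therefore differed by more than counting noise in every group. The tissue label was checked against markers. The summed scaled counts of 9 hepatocyte genes were 3469800 to 3523040 in the selenite group, 3991150 to 4124410 in the β-CYP group and 3317100 to 3469180 in control. Single genes did not all follow these sums. At an adjusted p below 0.05 (limma), 3 of them rose and 6 fell with selenite against control. With selenite against β-CYP 1 rose and 7 fell, and with β-CYP against control 5 rose and 2 fell. Most of each sum was Alb. Fgb averaged 548098 in the selenite group, 426593 in the β-CYP group and 248333 in control. The selenite libraries also held 38734 to 40388 scaled counts of 12 pancreatic acinar genes, against 1161 to 1234 in β-CYP and 983 to 1157 in control. Most of the β-CYP and control sums was Cela1, which averaged 1182 in β-CYP and 1063 in control, and 2818 with selenite. Cela3b, Cpa1, Cpb1, Prss2, Pnlip and Try4 were at 0 in all β-CYP and control libraries. The control libraries held 328 to 354 scaled counts of 8 spermatid genes, against 0 to 4.79 in the selenite group and 2.77 to 8.32 in the β-CYP group. The part of these transcripts in the H2 values was not tested.

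Most H2 members differed between groups. Given β-CYP against control, 13 of 31 members rose and 5 fell at an adjusted p below 0.05 (limma, Benjamini-Hochberg over 20145 genes), which is 58.1% of the members, where 16.3% of all genes passed, 7.72% higher and 8.58% lower. With selenite against β-CYP, 12 rose and 8 fell, or 64.5%, where 23.9% of all genes passed, 11.6% higher and 12.3% lower. With selenite against control, 16 rose and 7 fell, or 74.2%, where 28.9% of all genes passed, 14.4% higher and 14.5% lower. The median log2 change of the members was 0.15, 0.62 and 0.76 in these 3 comparisons, and that of all genes was -0.00, 0.02 and 0.03. The 3 comparisons share their groups and are not independent of each other. H2-M2 reached the minimum level only through the selenite group and had to differ, so the 2 selenite counts include it by construction. The split of all genes into higher and lower depended on scaling: with equal library totals 3238 rose and 1335 fell with selenite against β-CYP, and 1532 rose and 3853 fell with equal medians, compared with 2337 and 2468 as deposited. Against control, the corresponding splits with selenite were 3979 and 1764, 1819 and 4550, and 2908 and 2915. Without control replicate 2, 17 members passed with β-CYP against control and 23 with selenite against control.

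**Figure D1:**
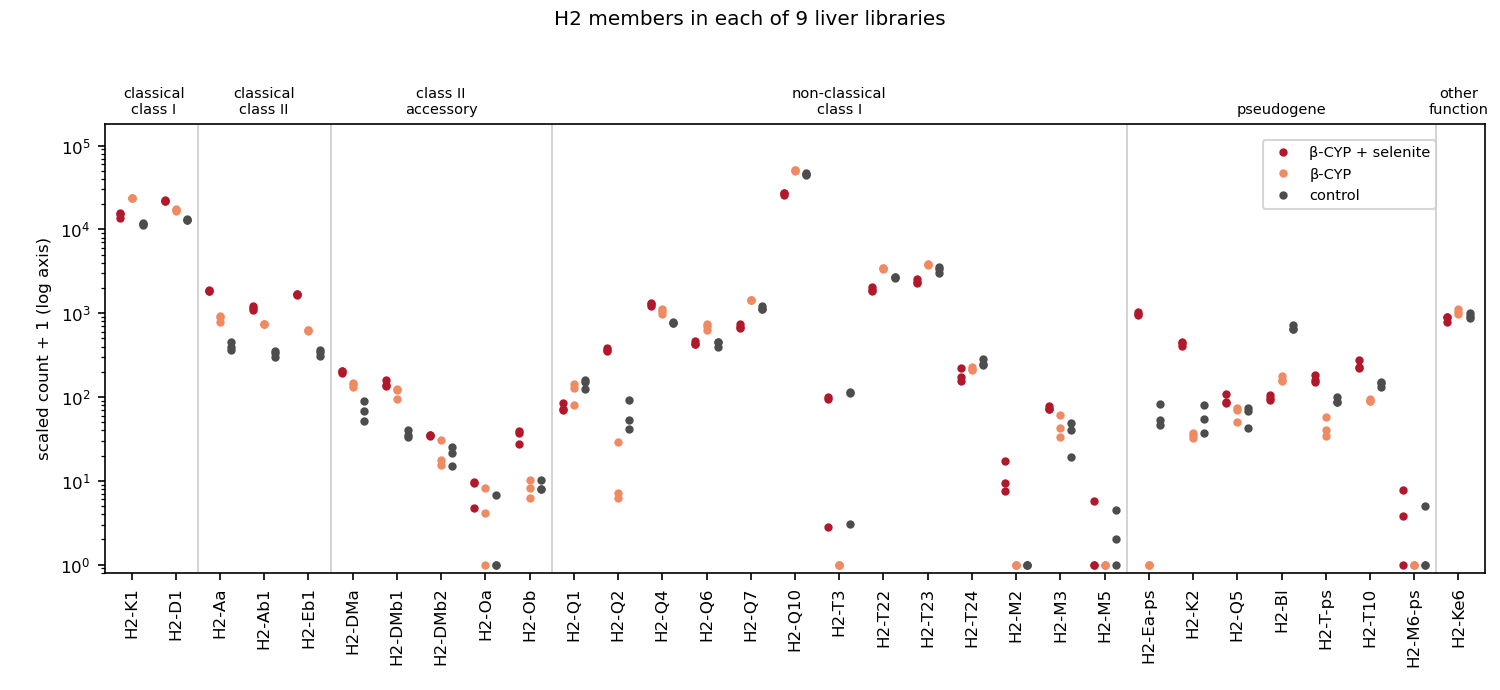
Scaled count plus 1 of each of the 31 H2 members on a log axis, 1 point per library, with the β-CYP with selenite group left, β-CYP in the middle and control right within each member. H2-Q10, H2-K1 and H2-D1 are the highest rows in all libraries, the classical class II genes step down over the 3 groups, and H2-Ea-ps averages 987 with selenite and has 0 reads with β-CYP alone.

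The classical class I chains moved apart. H2-K1, which encodes the K heavy chain, had 13696, 15872 and 15275 scaled counts in the selenite group, 23658, 23504 and 23747 in the β-CYP group and 11184, 11536 and 11898 in control. No group overlapped another, and β-CYP was the highest. Groups without overlap were common: they were found in 31.6% of all genes tested with β-CYP against control, 37.8% with selenite against β-CYP and 41.8% with selenite against control. H2-K1 was 2.05-fold higher with β-CYP than in control, a log2 change of 1.03 ± 0.048 (SE, n = 3 each, adjusted p = 4.2e-07). With selenite it fell by 0.66 ± 0.048 against β-CYP (adjusted p = 6.4e-06) and was still 0.37 ± 0.048 above control on the log2 scale (adjusted p = 3.0e-04).

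H2-D1, which encodes the D heavy chain, had 22460, 21546 and 21982 scaled counts in the selenite group, 17141, 16632 and 17311 in the β-CYP group and 12864, 12940 and 13403 in control. Here too no group overlapped another, but the selenite libraries were the highest. The log2 change was 0.38 ± 0.027 with β-CYP against control (adjusted p = 7.2e-06), 0.37 ± 0.027 with selenite against β-CYP (adjusted p = 5.9e-06) and 0.75 ± 0.027 with selenite against control (adjusted p = 2.7e-08). Both classical class I genes were thus higher with β-CYP than in control, and with selenite added H2-K1 was lower and H2-D1 higher. No haplotype was typed, so haplotype and treatment cannot be told apart in the counts of these 2 genes or in their quotient.

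The quotient of H2-K1 over H2-D1, taken within each library so that scaling drops out, was 0.61, 0.737 and 0.695 in the selenite group, 1.38, 1.41 and 1.37 in the β-CYP group and 0.869, 0.892 and 0.888 in control. The 3 groups did not overlap in it. Per kilobase of exon, H2-D1 was at 8530 and H2-K1 at 5090 scaled counts in the selenite group, H2-D1 at 6600 and H2-K1 at 8050 in β-CYP, and H2-D1 at 5070 and H2-K1 at 3930 in control, so that the order of the pair turned in the β-CYP group. Of the 50-base windows of their transcripts, 9.63% for H2-K1 and 12.8% for H2-D1 also occur in another gene, mainly other class I genes, and the sources used here do not say how reads from such stretches were assigned. Levels per kilobase use exon lengths of GENCODE vM21.

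**Figure D2:**
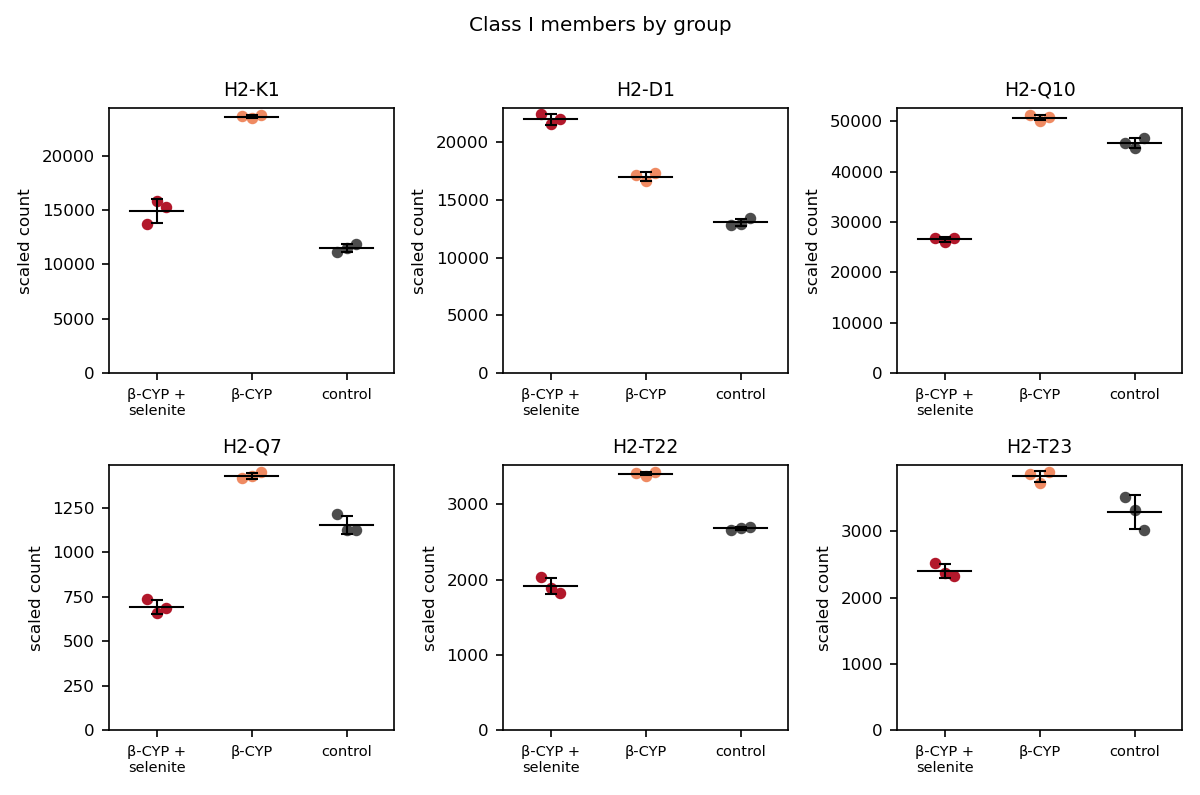
Scaled counts of 6 class I members by group, 1 point per library, with the mean as a line and the SD as a bar (n = 3). H2-K1, H2-Q10, H2-Q7, H2-T22 and H2-T23 are highest with β-CYP alone, and H2-D1 is highest with selenite.

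The 3 classical class II genes rose in every comparison. H2-Aa, the α chain of the I-A molecule, had 1862, 1853 and 1869 scaled counts in the selenite group, 795, 895 and 926 in the β-CYP group and 363, 455 and 391 in control. H2-Ab1, the β chain of I-A, had 1147, 1088 and 1201 in the selenite group, 741, 745 and 746 in the β-CYP group and 353, 334 and 299 in control. H2-Eb1, the β chain of the I-E molecule, had 1702, 1644 and 1680 in the selenite group, 626, 630 and 617 in the β-CYP group and 306, 340 and 362 in control. For all 3 genes the selenite libraries were highest and the control libraries lowest, with no overlap between groups, as in 31.6% to 41.8% of all genes in the single comparisons.

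With β-CYP against control the log2 changes were 1.12 ± 0.087 for H2-Aa (adjusted p = 1.7e-05), 1.18 ± 0.071 for H2-Ab1 (2.6e-06) and 0.90 ± 0.066 for H2-Eb1 (1.2e-05). With selenite against β-CYP they were 1.10 ± 0.087 (1.2e-05), 0.62 ± 0.071 (1.5e-04) and 1.42 ± 0.066 (2.8e-07) in the same order. With selenite against control H2-Aa was 4.62-fold, H2-Ab1 3.48-fold and H2-Eb1 4.99-fold higher. The I-A chains and H2-Eb1 did not keep a constant proportion. H2-Eb1 over H2-Ab1 within a library was 1.40 to 1.51 in the selenite group, 0.828 to 0.846 in the β-CYP group and 0.865 to 1.21 in control. No 50-base window of H2-Ab1 or H2-Eb1 occurs in another annotated transcript. In whole tissue, a change in the number of cells that carry a transcript and a change in the transcript per cell cannot be told apart.

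**Figure D3:**
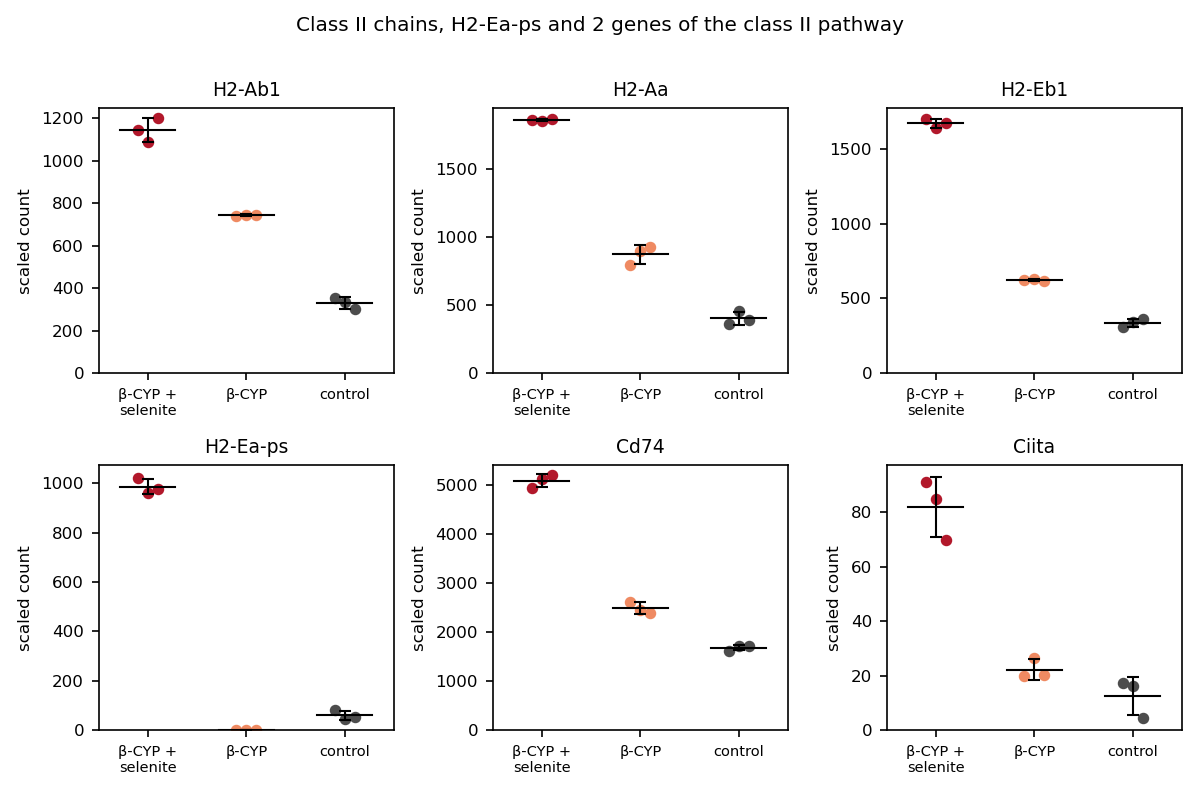
Scaled counts of the 3 classical class II chains, H2-Ea-ps, Cd74 and Ciita by group, 1 point per library, with the mean as a line and the SD as a bar (n = 3). All 3 chains and Cd74 are ordered selenite, β-CYP, control, while H2-Ea-ps is at 0 in the 3 β-CYP libraries.

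H2-Ea-ps was abundant in every library of one group and had no read in any library of another. The gene encodes the α chain of I-E, the partner of H2-Eb1; in the reference strain C57BL/6J, which carries the b haplotype, it is not transcribed, and the annotation lists it as a polymorphic pseudogene. It had 1110, 1041 and 1022 reads in the selenite group, 0 reads in each of the 3 β-CYP libraries, and 80, 45 and 46 reads in control. With a floor of 3 reads per library in place of 0, it was at least 330.7-fold higher in the selenite group than in the β-CYP group, and at least 19.96-fold lower in the β-CYP group than in control. Between selenite and control, both above the floor, the fold of the mean scaled counts was 16.6, at 987 ± 31.6 against 59.6 ± 18.8 (SD, n = 3 each). None of its 50-base windows occurs in another annotated transcript.

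An on/off row was taken as at most 3 reads in every library of one group and at least 20 in every library of another; H2-Ea-ps was 1 such member of 31, and 106 of all genes tested, or 0.526%, met it. The partner chain H2-Eb1 was not missing in the β-CYP group, at 602, 617 and 668 reads. H2-Ea-ps over H2-Eb1 in scaled counts was 0.583 to 0.6 in the selenite group, 0 in the β-CYP group and 0.133 to 0.265 in control. Per kilobase of exon, H2-Ea-ps was at 953 and H2-Eb1 at 862 scaled counts in the selenite group. In control, H2-Ea-ps was at 57.5 and H2-Eb1 at 173. Haplotype and treatment cannot be told apart here, since all 3 libraries of a group behaved alike and no genotype accompanies them.

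H2-T3 was on or off between libraries of the same group. It encodes the thymus leukaemia antigen, a class I-like chain best known from intestinal epithelium and thymocytes. It had 106, 2 and 98 reads in the selenite group, 0, 0 and 0 reads in the β-CYP group, and 2, 114 and 97 reads in control. Selenite replicate 2 and control replicate 1 were thus at the level of the β-CYP libraries while the other 4 libraries of their groups were close to 100. It was the 1 member of 31 with at most 3 reads in one library and at least 20 in another of the same group, and 393 of all genes tested, or 1.95%, met this. The difference did not pass the test with β-CYP against control (log2 change -5.09 ± 1.6, adjusted p = 0.0634) or with selenite against β-CYP (4.90 ± 1.6, adjusted p = 0.0556). Without control replicate 1 the first became -6.83 (adjusted p = 0.0139), and without selenite replicate 2 the second became 6.60 (adjusted p = 0.0136).

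H2-Q2 and H2-K2 stepped between groups in the same order as H2-Ea-ps without reaching 0. H2-Q2, a class I gene of the Q region, had 385, 397 and 403 reads in the selenite group, 5, 6 and 30 in the β-CYP group and 91, 52 and 35 in control. H2-K2, a transcribed pseudogene in the annotation, had 476, 443 and 468 reads in the selenite group, 33, 31 and 39 in the β-CYP group and 78, 54 and 32 in control. In scaled counts the selenite group stood above both others in each gene. With selenite against β-CYP the log2 change was 5.09 ± 0.54 for H2-Q2 (adjusted p = 8.6e-05) and 3.63 ± 0.24 for H2-K2 (adjusted p = 3.2e-06). With selenite against control it was 2.65 ± 0.54 (adjusted p = 0.0044) and 2.98 ± 0.24 (adjusted p = 1.1e-05). With β-CYP against control H2-Q2 fell by 2.44 ± 0.54 (adjusted p = 0.0119), a call that was lost without control replicate 1 (adjusted p = 0.052) and in a fit of these 2 groups alone (0.0811). H2-K2 was at -0.65 ± 0.24 (adjusted p = 0.105), and at -0.93 without control replicate 3 (adjusted p = 0.0117). Among the controls, replicate 1 had the most scaled counts of H2-Ea-ps (80.9), H2-Q2 (92.1) and H2-K2 (78.9) and the fewest of H2-T3 (2.02). Selenite replicate 2, also low in H2-T3 (1.84), had the fewest of H2-Ea-ps (960) and H2-K2 (409) in its group. Control replicate 1 was the highest of its group in these rows, so the 2 libraries low in H2-T3 did not share a pattern. The selenite libraries lay close together, at 960 to 1022 for H2-Ea-ps and 409 to 448 for H2-K2. In H2-Q2 selenite replicate 2 was in the middle (354, 366 and 386).

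H2-Bl ran the other way and was highest in control. Annotated as a polymorphic pseudogene of class I type, it had 115, 99 and 101 reads in the selenite group, 154, 153 and 189 in the β-CYP group and 641, 637 and 625 in control. It fell by 2.02 ± 0.098 on the log2 scale with β-CYP against control (adjusted p = 5.2e-07), and by 0.74 ± 0.098 with selenite against β-CYP (adjusted p = 4.3e-04). With selenite against control it was at 0.147 of the control mean.

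H2-T10 and H2-T-ps were lowest with β-CYP. H2-T10, a relative of H2-T22 whose product is recognised by some γδ T cells in strains that make it, had 222, 227 and 278 scaled counts in the selenite group, 93.6, 88.8 and 89.7 in the β-CYP group and 130, 152 and 145 in control. H2-T-ps had 160, 181 and 151 in the selenite group, 33.3, 57.2 and 38.8 in the β-CYP group and 85.0, 97.6 and 85.7 in control. Both fell with β-CYP against control, by 0.64 ± 0.12 (adjusted p = 0.00636) and 1.07 ± 0.20 (adjusted p = 0.00544) on the log2 scale. Both rose with selenite against β-CYP, by 1.40 ± 0.12 (adjusted p = 2.7e-05) and 1.94 ± 0.20 (adjusted p = 8.4e-05).

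Of the 7 pseudogene rows, none rose and 4 fell with β-CYP against control, and 4 rose and 1 fell with selenite, both against β-CYP and against control. These shares are 57.1%, 71.4% and 71.4%, where 16.3%, 23.9% and 28.9% of all genes passed. H2-Q5 did not pass in any comparison as deposited, at 92.6 ± 13.4 scaled counts in the selenite group, 64.1 ± 13.3 in the β-CYP group and 60.1 ± 16.8 in control (SD, n = 3 each). With selenite against control H2-Q5 passed with equal totals (adjusted p = 0.0427) and with the replicate number as a block (0.0438). H2-M6-ps, with at most 7 reads in a library, did not pass either. H2-T10 shares 31.7% of its 50-base windows with H2-T22, H2-T-ps shares 18.0% with H2-T23 and H2-Q5 25.5% with H2-Q7, so single values of these rows are uncertain.

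The non-classical class I genes H2-Q10, H2-Q7, H2-T22 and H2-T23 shared another order, with β-CYP highest and selenite lowest. H2-Q10, the secreted liver class I chain, had 26850, 26057 and 26847 scaled counts in the selenite group, 51256, 50176 and 50939 in the β-CYP group and 45718, 44782 and 46656 in control. It fell by 0.93 ± 0.022 with selenite against β-CYP (adjusted p = 2.7e-09) and by 0.78 ± 0.022 with selenite against control (adjusted p = 4.3e-09). Its rise with β-CYP against control was 0.15 ± 0.022 (adjusted p = 9.3e-04) and did not pass when libraries were scaled to equal totals (adjusted p = 0.0959). Per kilobase, H2-Q10 was the highest member in the β-CYP group, at 11700 scaled counts, and in control, at 10500. In the selenite group its 6110 lay below the 8530 of H2-D1.

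H2-Q7, a gene for the Qa-2 antigen, had 735, 658 and 684 scaled counts in the selenite group, 1417, 1429 and 1449 in the β-CYP group and 1215, 1126 and 1128 in control. H2-T22, whose product is recognised by γδ T cells, had 2034, 1882 and 1827 in the selenite group, 3420, 3379 and 3427 in the β-CYP group and 2653, 2684 and 2701 in control. H2-T23, which encodes Qa-1, the ligand of CD94/NKG2 receptors of natural killer (NK) cells, had 2525, 2377 and 2320 in the selenite group, 3870, 3739 and 3892 in the β-CYP group and 3528, 3322 and 3026 in control. None of the 3 groups overlapped in any of these genes, which between 2 groups held for 31.6% to 41.8% of all genes.

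With selenite against β-CYP, H2-Q7 fell by 1.05 ± 0.055 (adjusted p = 6.6e-07), H2-T22 by 0.83 ± 0.042 (adjusted p = 4.8e-07) and H2-T23 by 0.67 ± 0.057 (adjusted p = 1.8e-05). All 3 also fell with selenite against control, by 0.74, 0.49 and 0.45 on the log2 scale. With β-CYP against control H2-Q7 rose by 0.31 ± 0.055 (adjusted p = 0.00399) and H2-T22 by 0.35 ± 0.042 (adjusted p = 3.4e-04). H2-T23 was at 0.22 ± 0.057 (adjusted p = 0.0246), a call that was lost without control replicate 2 (adjusted p = 0.0612), without control replicate 3 (0.0628), without β-CYP replicate 1 (0.0752) or 3 (0.0797), with equal totals (0.0685) and in a fit of the 2 groups alone (0.0671).

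H2-Q6 and H2-Q4, 2 further Q region genes, each took another course. H2-Q6, also a Qa-2 gene, had 427, 432 and 470 scaled counts in the selenite group, 696, 621 and 739 in the β-CYP group and 450, 391 and 456 in control. It rose by 0.66 ± 0.09 with β-CYP (adjusted p = 6.8e-04), fell by 0.63 ± 0.09 with selenite against β-CYP (adjusted p = 6.9e-04), and the selenite and control libraries overlapped. H2-Q4 had 1325, 1229 and 1275 in the selenite group, 1072, 973 and 1133 in the β-CYP group and 778, 756 and 769 in control. It rose with β-CYP against control (0.46 ± 0.062, adjusted p = 6.5e-04) and with selenite against control (0.73 ± 0.062, adjusted p = 1.5e-05); its change with selenite against β-CYP, 0.27 ± 0.062 (adjusted p = 0.0106), did not pass with equal medians (adjusted p = 0.145). H2-Q4 was therefore ordered like H2-D1.

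Over the 13 non-classical members, 6 rose and 1 fell with β-CYP against control, 3 rose and 5 fell with selenite against β-CYP, and 4 rose and 6 fell with selenite against control. These shares are 53.8%, 61.5% and 76.9%, where 16.3%, 23.9% and 28.9% of all genes passed, and the rises in both selenite comparisons include H2-M2, which had to differ. H2-Q1 fell with selenite against control, to 74.5 ± 8.64 scaled counts against 144.9 ± 19.5 (SD, n = 3 each, adjusted p = 0.0104). H2-T24 was 0.49 ± 0.14 lower in that comparison (adjusted p = 0.0242), which was lost without selenite replicate 1 or 2 or control replicate 1 or 3 (adjusted p 0.0536 to 0.0869), with equal totals (0.106) and in a fit of the 2 groups alone (0.06). H2-M3, which presents N-formylated peptides of bacteria and mitochondria, had 70.9, 71.0 and 77.6 in the selenite group, 60.3, 32.7 and 41.6 in the β-CYP group and 18.2, 47.3 and 38.9 in control. Its change with selenite against control was 1.15 ± 0.35 (adjusted p = 0.035), and this call was lost without any 1 selenite library or without control replicate 1 or 3 (adjusted p 0.0561 to 0.102), with the replicate number as a block (0.0657), with quantile normalization (0.0615) or equal medians (0.0613), and in a fit of the 2 groups alone (0.0597). H2-M2 had 9, 7 and 17 reads in the selenite group and 0 reads in the other 6 libraries, and was at least 3.46-fold higher than in β-CYP and at least 3.27-fold higher than in control. H2-M5 did not exceed 5 reads in any library.

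**Figure D4:**
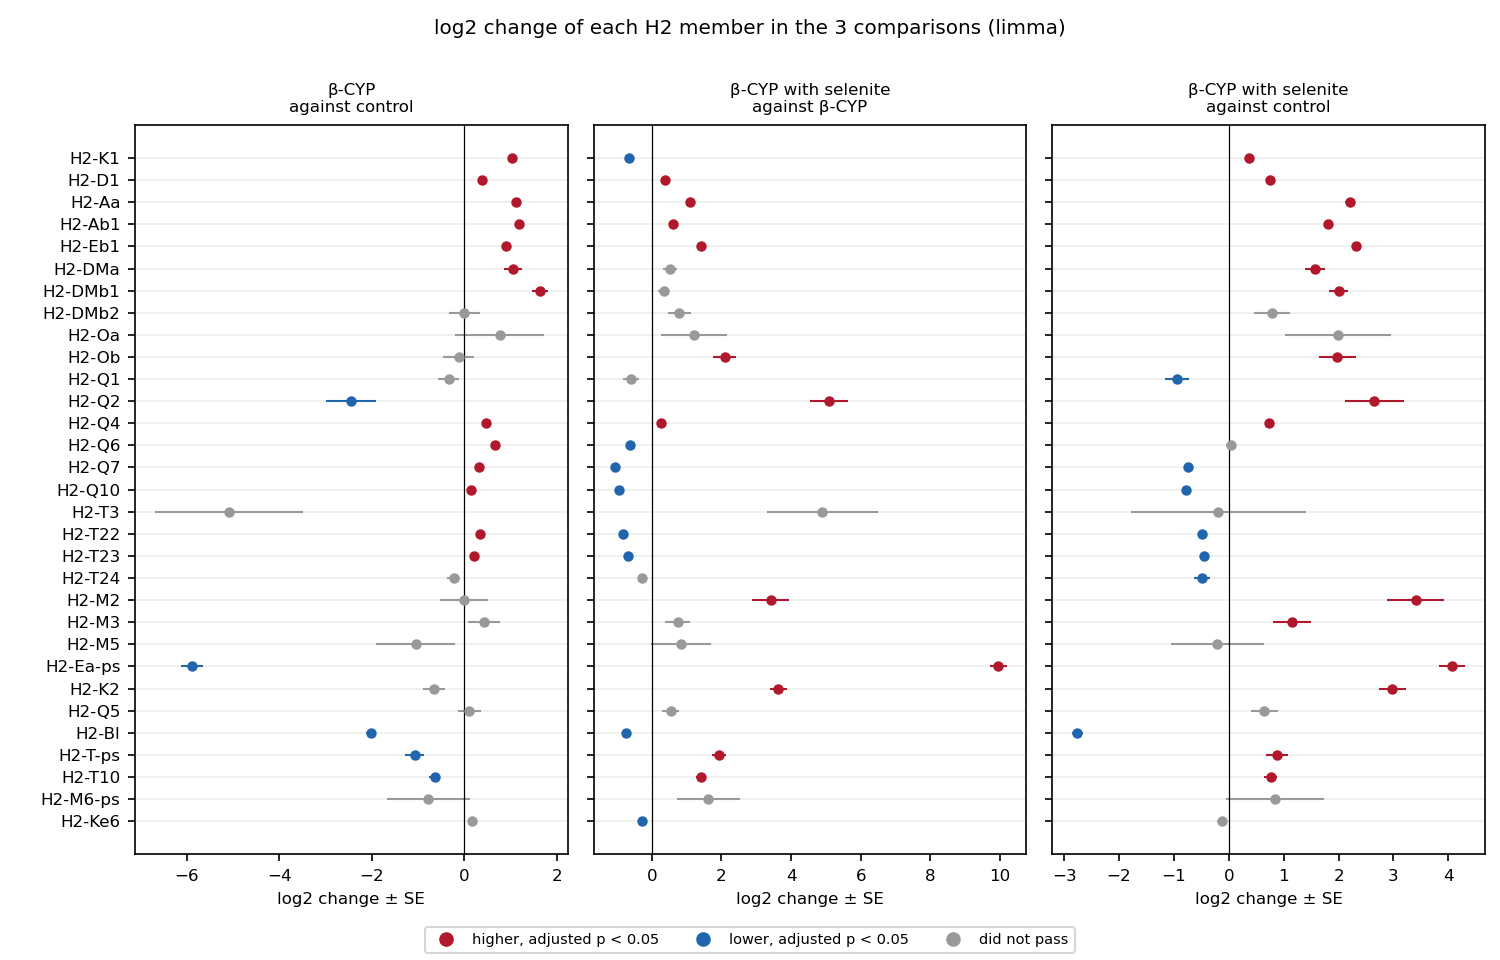
log2 change of each member with its SE, from 1 limma model over 9 libraries, for β-CYP against control, β-CYP with selenite against β-CYP and β-CYP with selenite against control. Filled red points rose and blue points fell at an adjusted p below 0.05, and grey points did not pass; the 3 panels have different horizontal scales, and changes of H2-Ea-ps, H2-T3 and H2-M2 against groups at 0 reads depend on the added 1.

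The accessory genes of class II loading followed the classical chains in part. H2-DMa and H2-DMb1, the chains of the peptide exchange factor H2-DM, rose with β-CYP against control. H2-DMa had 205, 193 and 206 scaled counts in the selenite group, 148, 130 and 142 in the β-CYP group and 67.8, 50.3 and 88.0 in control, and rose by 1.05 ± 0.19 (adjusted p = 0.00369). H2-DMb1 had 139, 158 and 133 in the selenite group, 123, 122 and 92.4 in the β-CYP group and 34.4, 39.3 and 32.0 in control, and rose by 1.64 ± 0.17 (adjusted p = 1.1e-04). With selenite against β-CYP the changes were 0.52 ± 0.19 for H2-DMa (adjusted p = 0.0729) and 0.36 ± 0.17 for H2-DMb1 (adjusted p = 0.169), and neither passed. The H2-DMa change did pass with limma-voom on the recovered reads (adjusted p = 0.017), in a fit of these 2 groups alone (0.00888) and with equal totals (0.0498).

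H2-Ob, the β chain of H2-O, an inhibitor of H2-DM best known from B cells, behaved differently. It had 26.7, 36.0 and 38.3 scaled counts in the selenite group, 5.20, 7.15 and 9.24 in the β-CYP group and 7.08, 7.05 and 9.14 in control. It rose by 2.09 ± 0.33 with selenite against β-CYP (adjusted p = 0.00134) and by 1.98 ± 0.33 with selenite against control (adjusted p = 0.00153), and was at -0.12 ± 0.33 with β-CYP against control (adjusted p = 0.877). Its partner H2-Oa had at most 9 reads in a library and passed in no comparison, except with selenite against control without control replicate 3 (adjusted p = 0.0448). H2-DMb2, a second β chain gene of H2-DM, was at 33.9 ± 0.324 in the selenite group, 20.2 ± 8.23 in the β-CYP group and 19.6 ± 5.06 in control (SD, n = 3 each) and did not pass either, except with selenite against β-CYP without β-CYP replicate 3 (adjusted p = 0.0412). It shares 21.2% of its 50-base windows with H2-DMb1.

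H2-Ke6 carries an H2 name from its place in the MHC and encodes a hydroxysteroid dehydrogenase, also called HSD17B8, that presents no peptide. It had 905, 778 and 888 scaled counts in the selenite group, 966, 1123 and 1043 in the β-CYP group and 1005, 870 and 931 in control. Its log2 change with selenite against β-CYP was -0.29 ± 0.083 (adjusted p = 0.0334). That call was lost without selenite replicate 2 or 3 or β-CYP replicate 2 or 3 (adjusted p 0.0587 to 0.115), with the replicate number as a block (0.06), in a fit of the 2 groups alone (0.0677) and with equal totals (0.332). Of its 50-base windows, 70.5% lie also in the overlapping transcript Gm20427.

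Summed by class, the classical class I genes held 36156 to 37418 scaled counts in the selenite group, 40136 to 41059 in the β-CYP group and 24048 to 25301 in control. The classical class II genes held 4584 to 4749 in the selenite group, 2161 to 2290 in the β-CYP group and 1022 to 1129 in control. The non-classical class I genes held 33321 to 34650 in the selenite group, 60691 to 62091 in the β-CYP group and 53634 to 55363 in control, most of it H2-Q10. The pseudogene rows held 1979 to 2044 in the selenite group, 388 to 403 in the β-CYP group and 1061 to 1096 in control. Each of these 4 sums had its own order of the 3 groups, and both class I sums were highest with β-CYP. All members together took 0.257% to 0.26% of reads in the selenite group, 0.314% to 0.322% in the β-CYP group and 0.225% to 0.256% in control.

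The genes that act with class II molecules included Cd74, whose groups stood in the order of the classical chains. Cd74, the invariant chain that guides class II molecules to the endosome, had 4951, 5125 and 5209 scaled counts in the selenite group, 2623, 2443 and 2390 in the β-CYP group and 1619, 1711 and 1711 in control. It rose by 0.56 ± 0.045 with β-CYP against control (adjusted p = 1.8e-05) and by 1.04 ± 0.045 with selenite against β-CYP (adjusted p = 1.6e-07). Ciita, the class II transactivator, had 91.1, 84.9 and 70.0 in the selenite group, 19.8, 26.5 and 20.3 in the β-CYP group and 17.2, 16.1 and 4.57 in control. Ciita rose by 1.84 ± 0.43 with selenite against β-CYP (adjusted p = 0.0121); with β-CYP against control it was at 0.94 ± 0.43 (adjusted p = 0.195).

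Of 16 genes of class II processing and regulation, 5 rose and none fell with β-CYP against control, 4 rose and 1 fell with selenite against β-CYP, and 5 rose and none fell with selenite against control. That is 31.2% of the list in each comparison, where 16.3%, 23.9% and 28.9% of all genes passed; with selenite the share is close to that of all genes. The list's median log2 change was 0.27, 0.25 and 0.45. The proteases Ctss and Lgmn rose in all 3 comparisons, by 0.33 ± 0.055 and 0.35 ± 0.057 with β-CYP against control. Ifi30, a lysosomal thiol reductase, rose in both comparisons against control, by 0.40 ± 0.09 with β-CYP and by 0.46 ± 0.09 with selenite. Ctsl, a lysosomal protease, rose by 0.33 ± 0.046 with β-CYP against control and fell by 0.20 ± 0.046 with selenite against β-CYP.

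The genes that act with class I molecules were mixed. B2m, β2-microglobulin, the partner of every class I heavy chain, averaged 48874 ± 630 scaled counts in the selenite group, 46430 ± 686 in the β-CYP group and 49066 ± 425 in control (SD, n = 3 each). Its log2 changes were -0.08 ± 0.018 with β-CYP against control and 0.07 ± 0.018 with selenite against β-CYP (adjusted p = 0.0151 and 0.0157). The second is smaller than the medians of all genes in that comparison under other scalings, 0.14 with equal totals and -0.11 with equal medians. Nlrc5, the class I transactivator, averaged 798 ± 23.7 in the selenite group, 669 ± 52.4 in the β-CYP group and 384 ± 24.1 in control. Nlrc5 rose by 0.80 ± 0.076 with β-CYP against control (adjusted p = 6.4e-05) and by 0.26 ± 0.076 with selenite against β-CYP (adjusted p = 0.0357). Tap1, a subunit of the peptide transporter, averaged 651 ± 81.2 in the selenite group, 686 ± 64.6 in the β-CYP group and 454 ± 19.7 in control, and rose by 0.59 ± 0.10 with β-CYP against control (adjusted p = 0.00274).

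Of 18 genes of class I processing and regulation, 8 rose and 4 fell with β-CYP against control, 7 rose and 5 fell with selenite against β-CYP, and 6 rose and 3 fell with selenite against control, with median log2 changes of 0.19, 0.08 and 0.06. The shares that passed are 66.7%, 66.7% and 50.0%, where 16.3%, 23.9% and 28.9% of all genes passed. Irf2, an interferon regulatory factor, averaged highest with β-CYP: it rose by 0.72 ± 0.055 against control and fell by 0.67 ± 0.055 with selenite against β-CYP. Tapbp, the tapasin of the loading complex, rose by 0.29 ± 0.055 with β-CYP and fell by 0.59 ± 0.055 with selenite against β-CYP. Tap2 rose by 0.42 ± 0.065 with selenite against β-CYP, and Irf1 by 0.46 ± 0.081 with selenite against control.

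Class I-like genes outside the H2 names gave 1 rise and 1 fall of 7 with β-CYP against control and 2 falls with selenite in each comparison, or 28.6% each time, where 16.3%, 23.9% and 28.9% of all genes passed. Azgp1, a secreted class I-like glycoprotein made by liver, fell by 0.48 ± 0.022 with selenite against β-CYP, and Cd1d1, which presents lipids to NKT cells, fell by 0.41 ± 0.039 with β-CYP against control. Cd1d2 fell by 1.22 ± 0.30 with selenite against β-CYP. Of 9 receptors of MHC molecules, 1 rose with β-CYP against control, none passed with selenite against β-CYP, and 2 rose with selenite against control. These shares, 11.1%, 0.0% and 22.2%, lie below the 16.3%, 23.9% and 28.9% of all genes. The receptors that passed were Pirb, an inhibitory class I receptor of myeloid cells, at 0.50 ± 0.12 with β-CYP and 0.51 ± 0.12 with selenite against control, and Klrk1, the NKG2D receptor, at 1.15 ± 0.29 with selenite against control.

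Markers of the cells that usually carry class II were measured beside these values. The summed Kupffer cell and macrophage markers (12 genes) were 20261 to 20415 scaled counts in the selenite group, 16454 to 16855 in the β-CYP group and 15933 to 16576 in control. Within that list 9 rose and none fell with selenite against control, and 7 rose and none fell with selenite against β-CYP. With β-CYP against control 3 rose and 3 fell. These shares are 75.0%, 58.3% and 50.0%, where 28.9%, 23.9% and 16.3% of all genes passed. The list's median log2 change was 0.31, 0.21 and 0.01 in the same order. The largest changes were those of the scavenger receptors Marco, which rose by 2.02 ± 0.12, and Cd163, which rose by 2.59 ± 0.074, with selenite against β-CYP; Cd163 fell by 1.55 ± 0.074 with β-CYP against control.

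The dendritic cell sum (10 genes) was 324 to 348 in the selenite group, 267 to 320 in the β-CYP group and 242 to 280 in control. Of these 10 genes, 1 rose with β-CYP against control, none passed with selenite against β-CYP, and 2 rose with selenite against control. Each share lies below that of all genes, which was 16.3%, 23.9% and 28.9% in the same order. Itgax rose in both comparisons against control, by 1.57 ± 0.42 with β-CYP and 1.72 ± 0.42 with selenite. Flt3 rose with selenite against control, and the other genes of the list passed in no comparison. The B cell sum (11 genes) was 380 to 431 in the selenite group, 422 to 446 in the β-CYP group and 249 to 346 in control; most of it was Ighm, and Ms4a1, which encodes CD20, was at 0 in the 3 β-CYP libraries. The T and NK cell sum (12 genes) was 174 to 180 in the selenite group, 70.2 to 71.5 in the β-CYP group and 51.3 to 94.9 in control. Its genes were low, and the highest in the selenite group, Lck, averaged 34.6 scaled counts. Of 11 tested, 3 rose in each selenite comparison. That is 27.3%, close to the 23.9% against β-CYP and 28.9% against control of all genes. None of the list fell in these comparisons. Its median log2 change was 1.15 against β-CYP and 1.17 against control, where that of all genes was 0.02 and 0.03. With β-CYP against control none passed, and the median was -0.11. Relative to the control mean, the class II chains stood at 4.29 to 4.45 in the selenite group and 2.02 to 2.14 in the β-CYP group. On the same scale macrophage markers stood at 1.25 to 1.26 with selenite and 1.02 to 1.04 with β-CYP. Sinusoidal endothelial markers (10 genes) stood at 0.941 to 0.962 with selenite and 0.965 to 0.969 with β-CYP. The part of these cells in the class II values was not tested.

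**Figure D5:**
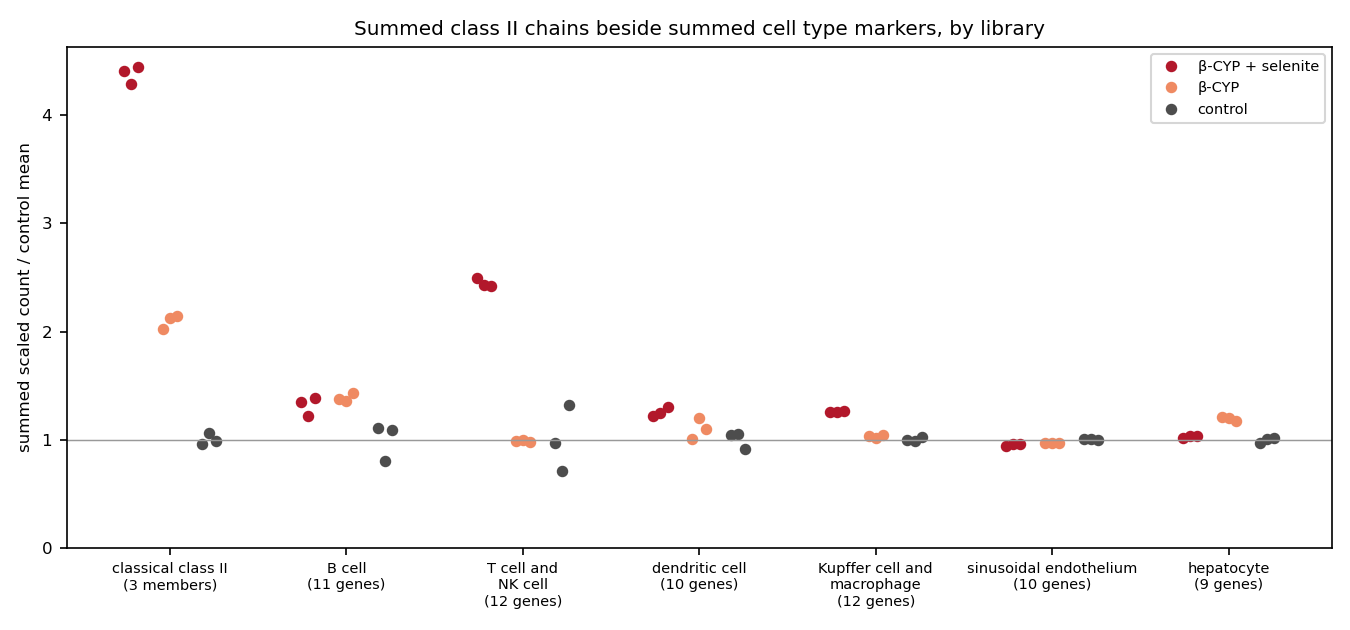
Summed scaled counts of the 3 classical class II chains and of 6 marker lists in each library, divided by the mean of the 3 control libraries, with the β-CYP with selenite group left, β-CYP in the middle and control right. The class II sum stands at 4.29 to 4.45 with selenite, where T and NK cell markers stand at 2.42 to 2.49 and macrophage markers at 1.25 to 1.26.

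The spread between libraries was small for the abundant members. Over the 54 member and group pairs with a mean of at least 100 reads, the median coefficient of variation was 5.46%, where counting error alone gives 3.51%. Single coefficients from 3 libraries varied between groups. The coefficient of H2-Aa was 0.417% in the selenite group, 7.89% in the β-CYP group and 11.7% in control. For H2-K1 it was 7.52% in the selenite group, 0.52% in the β-CYP group and 3.09% in control. In H2-Q2 it was 97.9% in the β-CYP group and 44.3% in control, against 4.35% in the selenite group. Floors and read counts cover counting error only, since reads are not independent molecules.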

How the data were processed

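Per the labels' protocols, Trizol extracts of 9 liver samples were made into TruSeq libraries; the design text names a HiSeq instrument and the library protocol a BGISEQ one. The tools HISAT and Cufflinks and the build mm9 are named, per the submitters' processing notes, without versions or roles; the sources used here give neither the annotation nor the treatment of reads shared between genes. The authors deposited 1 table of log2 values for 25781 genes. These were checked to be log2(reads / library factor + 1): whole reads, within 0.02, were recovered for 100% of values, and the factors equal median-of-ratios factors, which assume that most genes do not change. The 20145 genes whose mean scaled count reached 1 were fitted in 1 model of 3 group means over 9 libraries with limma 3.58.1 (R 4.3.3), with an intensity trend, two-sided, adjusted by Benjamini-Hochberg at 0.05; log2 changes are on the log2(scaled count + 1) scale and understate changes of low genes. The code was tested on simulated data. Members and gene lists were chosen with earlier results of these data known. All members were named, and of each pathway list Cd74, Ciita, B2m, Tap1 and Nlrc5 plus genes among the 4 largest passing changes of a comparison. A gene withheld for evaluation is not reported here by name. Single values are uncertain for the H2 genes that share stretches with other genes. Of the 50-base windows, 36.4% for H2-Q5 and 0.0% for H2-Ab1 also occur in another gene. All 33 H2 rows matched GENCODE vM21 by Ensembl identifier, used for gene type, exon length and shared 50-base windows. The member classes were assigned by gene symbol and are not given by GENCODE. Promoters are RefSeq's. Alternatives were other pseudocounts, minima, scalings, limma-voom, fits of 2 groups, a replicate block and leaving out each library.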

Additional observations from a re-analysis of the deposited data

How the results depend on the processing

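The numbers of members that passed stayed within 1.5 times of those reported under every alternative run: 16 to 19 with β-CYP against control, 19 to 21 with selenite against β-CYP and 21 to 23 with selenite against control, libraries left out included. With the replicate number as a block they were 18, 19 and 23 (all genes 2956, 4481 and 5506); deviations of same-numbered libraries correlated at -0.0368 to 0.0722, so the numbers were not taken to pair libraries. Of 918 values of single members under alternatives that kept all libraries, 889 kept their direction and their side of the threshold, as did 521 of 558 without 1 library. Scaling to equal totals moved the median of all genes to 0.14 with selenite against β-CYP and 0.16 against control, and equal medians, chosen after seeing the data, to -0.11 and -0.13. Members that turned sign had not passed: with equal medians H2-DMb2 (-0.03, β-CYP against control) and H2-Q6 (-0.12, selenite against control), and with equal totals H2-Ke6 (0.01, selenite against control). Without 1 library, the log2 change with β-CYP against control ran from -0.30 to 0.20 for H2-DMb2, -0.29 to 0.07 for H2-Ob and -0.14 to 0.29 for H2-Q5. With selenite against control it ran from -0.03 to 0.08 for H2-Q6, -1.93 to 1.51 for H2-T3 and -1.05 to 0.34 for H2-M5; the cause was not tested. The on/off count between groups was 2 with at most 10 reads as off, and 1 to 2 without 1 library, being 2 without selenite replicate 2 or control replicate 1. A minimum mean of 10 left 27 members and any read gave 33. Members with few reads, H2-Oa, H2-M5 and H2-M6-ps, allow only large differences to be detected.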
